A study of Homo sapiens with 2 samples.

Results

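Glycolysis and the hypoxia response were described through 38 genes, of which 35 were measured among the 19775 genes of the arrays. The genes were chosen by name, with earlier results of these data known. They encode glucose transporters, the enzymes from hexokinase to pyruvate kinase, enzymes and regulators of lactate, pyruvate and fructose-2,6-bisphosphate, carbonic anhydrases, the hypoxia-inducible factors (HIF) with their prolyl hydroxylases, and genes that HIF is known to induce. Where several probe sets carried a single gene symbol, the brightest one on average over both arrays stood for the gene. SLC16A1, SLC16A3 and CA9 matched no probe set of that kind and were not analysed here.

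The 2 groups were HSC-3 cells on top of a Myogel coating and HSC-3 cells on uncoated plastic, with 1 Affymetrix array each. HSC-3 is an established, aggressive cell line derived from a squamous cell carcinoma of the human tongue. Myogel is a gelatinous protein extract of human uterine leiomyoma, a benign smooth muscle tumor. All cells carried red fluorescent protein from a lentiviral vector with a non-coding control sequence, had been selected with puromycin, and grew in DMEM/F-12 with 10% serum, hydrocortisone at 0.4 µg/ml and ascorbic acid at 50 µg/ml. The seeding was of 90000 cells, RNA was taken on the following day, and equal amounts from 3 wells per surface formed 1 pool, of which 1 µg was labelled. The pool gives 1 value per gene and surface, so no difference has a replicate check and no p-value is given. HSC-3 is 1 cell line, and the oxygen level of the cultures is not given in the sources used here.

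Glycolysis splits glucose into pyruvate in the cytosol, and lactate dehydrogenase turns pyruvate into lactate when it is not oxidised in mitochondria. Carcinoma cells often use this route even where oxygen is present. In well oxygenated cells the prolyl hydroxylases, which need oxygen, iron, 2-oxoglutarate and ascorbate, mark the HIF alpha subunits for destruction. When oxygen is low the subunits persist, pair with ARNT and bind a short DNA motif near genes of glucose uptake, glycolysis, pH control and mitophagy. HIF1A is controlled mainly through its protein, so that its transcript is not a readout of its activity.

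The core of that motif, the hypoxia response element, is ACGTG or GCGTG. It was searched on both strands in the 250 bases before the start of each gene (RefSeq, GRCh38.p14), and overlapping matches were counted as 1 site. The promoter table held 32 of the 35 measured genes, all but SLC2A3, BNIP3L and NDRG1. At least 1 site was found for 21 of these 32 genes (65.6%), and for 43.1% of all 27305 promoters of the table. Some of the genes were chosen because HIF is known to induce them, and the promoters were not matched for base composition. Differences in these shares were not tested. With 3 or more sites there were 5 of 32 (15.6%), against 5.61% of all promoters. These 5 are shown because they hold the most copies, from 5 in the mitophagy gene BNIP3 to 3 each in HK2, LDHA and PGK1. Capitals mark the sites, read 5′ to 3′ on the strand of the gene. BNIP3 lies at chr10:131981924-131982173 on the minus strand, ALDOC at chr17:28576896-28577145 on the minus strand, HK2 at chr2:74833877-74834126, LDHA at chr11:18394313-18394562 and PGK1 at chrX:78103998-78104247, these 3 on the plus strand.
BNIP3: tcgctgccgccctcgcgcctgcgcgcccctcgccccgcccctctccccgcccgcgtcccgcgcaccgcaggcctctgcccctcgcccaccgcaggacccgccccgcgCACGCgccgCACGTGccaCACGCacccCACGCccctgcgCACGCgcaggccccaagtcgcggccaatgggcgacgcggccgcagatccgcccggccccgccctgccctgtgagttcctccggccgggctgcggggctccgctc
ALDOC: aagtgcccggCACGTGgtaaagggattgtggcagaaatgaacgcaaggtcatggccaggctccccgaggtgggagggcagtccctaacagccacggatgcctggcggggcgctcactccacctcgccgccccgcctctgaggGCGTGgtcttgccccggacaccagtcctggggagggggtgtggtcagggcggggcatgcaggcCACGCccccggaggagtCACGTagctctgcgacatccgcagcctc
HK2: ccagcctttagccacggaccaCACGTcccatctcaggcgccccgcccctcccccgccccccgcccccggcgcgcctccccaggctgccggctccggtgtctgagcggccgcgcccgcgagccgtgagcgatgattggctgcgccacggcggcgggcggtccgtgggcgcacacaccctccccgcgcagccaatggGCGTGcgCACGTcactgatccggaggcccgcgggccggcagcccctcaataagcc
LDHA: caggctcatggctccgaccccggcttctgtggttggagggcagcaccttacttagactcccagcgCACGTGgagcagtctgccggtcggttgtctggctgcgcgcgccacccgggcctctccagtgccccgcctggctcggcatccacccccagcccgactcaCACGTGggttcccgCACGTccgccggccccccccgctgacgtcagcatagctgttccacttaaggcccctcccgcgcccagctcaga
PGK1: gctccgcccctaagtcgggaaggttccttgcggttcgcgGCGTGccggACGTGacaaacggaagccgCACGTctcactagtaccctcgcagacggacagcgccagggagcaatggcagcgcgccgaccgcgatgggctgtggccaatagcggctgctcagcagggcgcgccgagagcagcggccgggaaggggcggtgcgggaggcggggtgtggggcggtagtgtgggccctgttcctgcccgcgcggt

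A match is a string of letters and not a site shown to be bound. Where the capitals read CACGTG, a palindrome, the match on both strands was counted as 1 site, as in LDHA and ALDOC. In BNIP3 the 5 sites follow each other closely. The difference between the surfaces was small for all 5 genes, with a log2 fold change (FC, the Myogel value over the plastic value) between -0.17 for ALDOC and 0.26 for HK2. The median log2 FC was -0.09 over the 21 genes with a site and 0.03 over the 11 without one, and this difference was not tested.

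On Myogel and on plastic the genes of glycolysis and the hypoxia response had nearly the same values in their brightest probe sets. Their median log2 FC was -0.01, with quartiles of -0.11 and 0.08, and 17 of 35 genes lay within 0.1 of 0. The median over all 19775 genes was -0.07, with quartiles of -0.36 and 0.15, and 4819 of them lay within 0.1 of 0. With FC 1.5 or more, the threshold used in the methods of the study, 1 of the 35 genes was higher and 0 were lower on Myogel. Over all genes 9.71% were higher and 17.5% were lower by as much (1921 and 3469 genes), and few of these were bright. These counts rest on the ratio alone. The study reported a much smaller share of genes at this threshold, so its count and these are not alike. After quantile normalization 2609 genes were higher and 2559 lower, and after loess centring 2634 were higher and 2542 lower, so that the split over all genes depends on the scaling. Both values reached 1000 linear units for 24 of the 35 genes and for 4444 of all genes. Among these brighter genes 0 of 24 were higher and 0 of 24 were lower by 1.5, against 0.248% and 0.315% of the 4444. With FC 1.2 or more 1 of the 24 was higher (HK2) and 1 was lower (GPI), against 5.2% and 6.48%. These shares lie near those of other bright genes, and the median of the 24 genes, -0.01, lay close to the -0.03 of the 4444. Within 0.1 of 0 lay 16 of the 24 genes and 2171 of the 4444, and this was not tested. In bulk RNA, a gene used by fewer cells and a gene used less in each cell cannot be told apart.

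**Figure D1:**
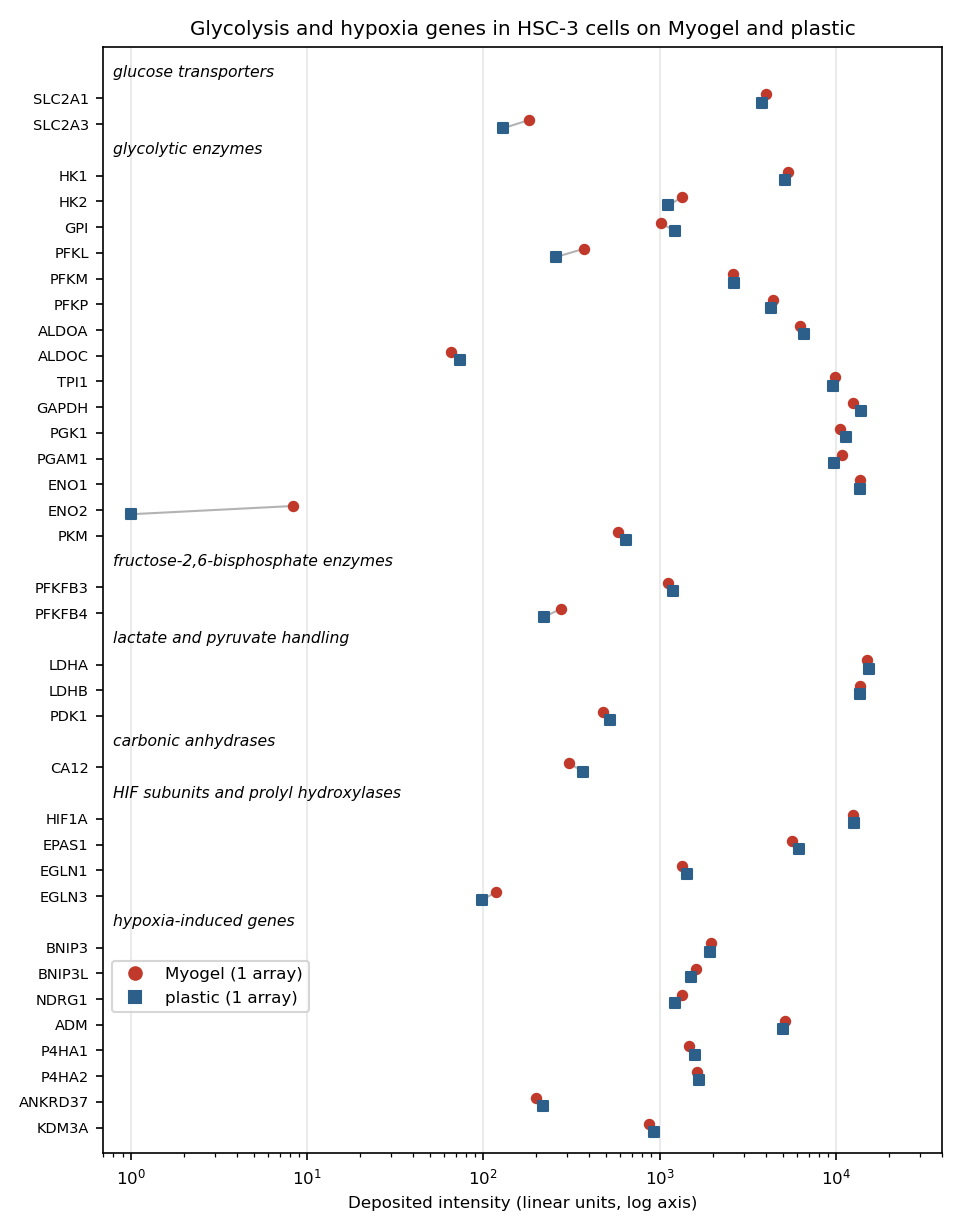
Deposited intensity (x axis, linear units on a log axis) of 35 genes, grouped by role, on the Myogel array (red circles) and on the plastic array (blue squares). The 2 symbols of most genes almost coincide, and ENO2, at 8.31 on Myogel and at the floor of 1 on plastic, stands furthest apart.

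The intensities depend on the probes as well as on the RNA, so they are compared between the surfaces and not between genes. As a measure of spread, each log2 FC was set beside the interval into which 95% of the 1000 probe sets closest in brightness fell. This interval is called its range and is printed for some of the genes. All 35 genes lay inside this range in their brightest probe set. Of all 80 probe sets of these genes, 4 lay outside their range, dimmer ones of PFKFB4, PGK1, CA12 and EPAS1. A range that holds 95% of probe sets leaves some outside by construction, so these 4 are no result about their genes.

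Of the glucose transporters, SLC2A1 (GLUT1), the main transporter of many carcinoma cells, had 4015 on Myogel and 3827 on plastic, a log2 FC of 0.07. Its dimmer probe set was lower, with 28.4 on Myogel and 40.0 on plastic (log2 FC -0.49), and the mean over both was -0.21. SLC2A3 (GLUT3), a transporter of high affinity, had 182 on Myogel and 129 on plastic. It was 1.41-fold higher in this probe set (log2 FC 0.49, range -0.88 to 0.63). Its 2 other probe sets went the other way, with 31.4 on Myogel and 70.8 on plastic in one, and the floor of 1.00 on Myogel and 3.09 on plastic in the other. A direction for SLC2A3 is therefore not shared by its probe sets, and its log2 FC was 0.61 after quantile normalization, past FC 1.5, and -0.77 as the mean over them.

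The hexokinases trap glucose in the cell by phosphorylation. HK1, the form found in most tissues, had 5334 on Myogel and 5156 on plastic. HK2, the form that HIF induces, had 1342 on Myogel and 1117 on plastic (log2 FC 0.26, range -0.53 to 0.46). The dimmer probe sets of HK2 gave log2 FCs of 0.02 and -0.28, so the difference was not repeated by them. GPI, which turns glucose-6-phosphate into fructose-6-phosphate, had 1015 on Myogel and 1230.4 on plastic, from its only probe set. Its log2 FC of -0.28 was the lowest among the 35 genes.

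The isoforms of phosphofructokinase, which commits the sugar to glycolysis, differed in their log2 FC. PFKL, the liver form, had 373 on Myogel and 259 on plastic and was 1.44-fold higher (log2 FC 0.53, range -0.70 to 0.59), the highest value among the genes above the floor on both arrays. Its dimmer probe set was lower, with 68.6 on Myogel and 118 on plastic. The log2 FC of PFKL was 0.59 after quantile normalization, past FC 1.5, and -0.13 as the mean over both probe sets. PFKM, the muscle form, had 2622 on Myogel and 2637 on plastic, and PFKP, the platelet form, had 4404 on Myogel and 4314 on plastic. Both thus had log2 FCs near 0, while the dimmer probe set of PFKP gave 0.43. Of the enzymes that set the level of fructose-2,6-bisphosphate, the activator of phosphofructokinase, PFKFB3 had 1112 on Myogel and 1189.9 on plastic. PFKFB4 had 275 on Myogel and 220.3 on plastic, which is 1.25-fold higher. In its dimmer probe set PFKFB4 had 90.7 on Myogel and 27.0 on plastic, a log2 FC of 1.75 that lay outside the range of -1.44 to 1.53. Both probe sets of PFKFB4 were thus higher on Myogel, by unequal amounts.

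The aldolases split fructose-1,6-bisphosphate. ALDOA had 6303 on Myogel and 6573 on plastic, and its 3 probe sets had log2 FCs between -0.06 and -0.05. ALDOC, the brain form, was dim, with 65.9 on Myogel and 74.0 on plastic. TPI1, which interconverts the triose phosphates, had 9916 on Myogel and 9646 on plastic. Its second probe set was lower (6622 on Myogel, 7143 on plastic) and the dimmest was higher (339 on Myogel, 288 on plastic), so that TPI1 showed no common direction.

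GAPDH and PGK1, bright enzymes of the later steps, were lower on Myogel in all of their probe sets as deposited. In their brightest probe sets the size depended on the scaling. With the median log2 ratio of all probe sets set to 0, GAPDH was at -0.05 and PGK1 at -0.01. After quantile normalization they were at -0.13 and -0.07. GAPDH, which makes 1,3-bisphosphoglycerate and is often used as a reference gene, had 12477 on Myogel and 13912 on plastic, a log2 FC of -0.16 (range -0.23 to 0.14). Its other probe sets gave -0.10 and -0.09. The 3 control probe sets of GAPDH, placed at the 3′ end, the middle and the 5′ end of the transcript, gave -0.12, -0.30 and -0.28. The ratio of 3′ to 5′ signal was 1.22 on Myogel and 1.10 on plastic. PGK1, which yields the first ATP of the pathway and is a textbook target of HIF, had 10601 on Myogel and 11477 on plastic, a log2 FC of -0.11. Its other 5 probe sets had log2 FCs of -0.27, -0.65, -0.34, -0.27 and -1.14, so that all 6 were lower. In one of them, with 3624 on Myogel and 5680.2 on plastic, PGK1 was 1.57-fold lower, outside the range of -0.34 to 0.29. Probe sets of 1 gene share the RNA of the same 2 arrays and are no replicates.

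The last steps of glycolysis gave small differences. PGAM1 had 10774 on Myogel and 9776 on plastic, a log2 FC of 0.14 at the upper edge of its range (0.14). ENO1, the main enolase, had 13709 on Myogel and 13637 on plastic, while its dimmer probe sets were lower, with log2 FCs of -0.22, -0.40 and -0.29, the last at the floor. ENO2, the neuronal enolase, was the only gene past FC 1.5, with 8.31 on Myogel and the floor of 1.00 on plastic, and a fold against the floor has no fixed size. Of the 1000 probe sets nearest to it in signal, 95% lay between -3.34 and 3.37. PKM, the pyruvate kinase of most tissues, had 579 on Myogel and 645 on plastic (log2 FC -0.15), and its dimmer probe set gave -0.09. Over the 15 enzymes from HK1 to PKM the median log2 FC was 0.01, with 8 above 0 and 7 below it.

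**Figure D2:**
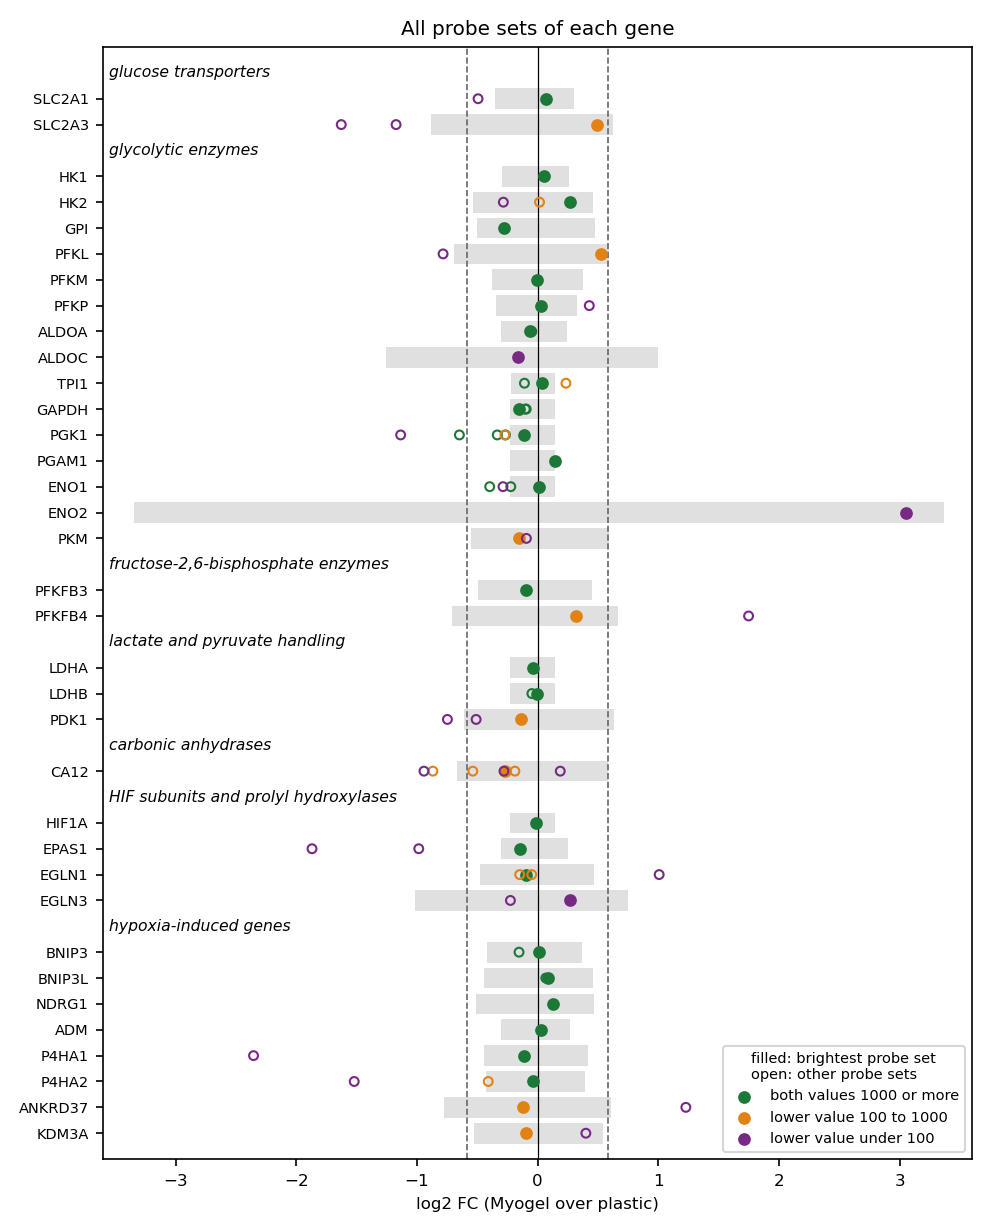
The log2 FC of Myogel over plastic (x axis) for all 80 probe sets of the 35 genes, with the brightest probe set of each gene filled and the others open, colored by the lower of the 2 values. Grey bars give the range of 95% of the 1000 probe sets nearest in signal to the brightest one, and dashed lines mark FC 1.5. Filled points lie inside their bars, and most open points beyond the dashed lines are dim.

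LDHA, which makes lactate from pyruvate, had 15042 on Myogel and 15434 on plastic. LDHB, which favors the reverse reaction, had 13735 on Myogel and 13774 on plastic. With log2 FCs of -0.04 and -0.00, both subunits of lactate dehydrogenase were nearly level between the surfaces, and the second probe set of LDHB gave -0.05. PDK1, a kinase that HIF induces and that keeps pyruvate out of the mitochondria by inhibiting pyruvate dehydrogenase, had 475 on Myogel and 523 on plastic (log2 FC -0.14). Its dimmer probe sets gave -0.75 and -0.51, with 60.2 on Myogel and 101 on plastic in the brighter of these. All 3 probe sets of PDK1 were thus lower on Myogel, inside the ranges for their signal.

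CA12 is a carbonic anhydrase of the cell surface that helps to export acid and is induced by hypoxia in many carcinomas. It had 307 on Myogel and 369 on plastic, a log2 FC of -0.27 (range -0.67 to 0.59). Of its 7 probe sets 6 were lower and 1 was higher. One of them had 148 on Myogel and 270.2 on plastic, which is 1.83-fold lower, just outside the range of -0.81 to 0.65. In the other probe sets the log2 FC lay between -0.94 and 0.19. CA12 was therefore lower in most of its probe sets, by amounts that differed among them.

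The transcripts of the oxygen-sensing machinery differed little. HIF1A, the alpha subunit found in most cells, had 12496 on Myogel and 12635 on plastic (log2 FC -0.02). EPAS1 (HIF-2 alpha), its relative with a partly different set of targets, had 5625 on Myogel and 6218 on plastic (log2 FC -0.14). The other 2 probe sets of EPAS1 were lower by more, and one of them, with 30.2 on Myogel and 110.3 on plastic, had a log2 FC of -1.87 outside the range of -1.32 to 1.22. The 3 probe sets thus shared a direction but not a size. EGLN1 (PHD2), the main prolyl hydroxylase of HIF1A, had 1341 on Myogel and 1436 on plastic. EGLN3 (PHD3), a hydroxylase that HIF itself induces, had 118 on Myogel and 98.2 on plastic (log2 FC 0.27), and its dimmer probe set gave -0.23. The dimmest of the 4 probe sets of EGLN1 had 62.8 on Myogel and 31.2 on plastic, while the other 3 had log2 FCs between -0.15 and -0.05.

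**Figure D3:**
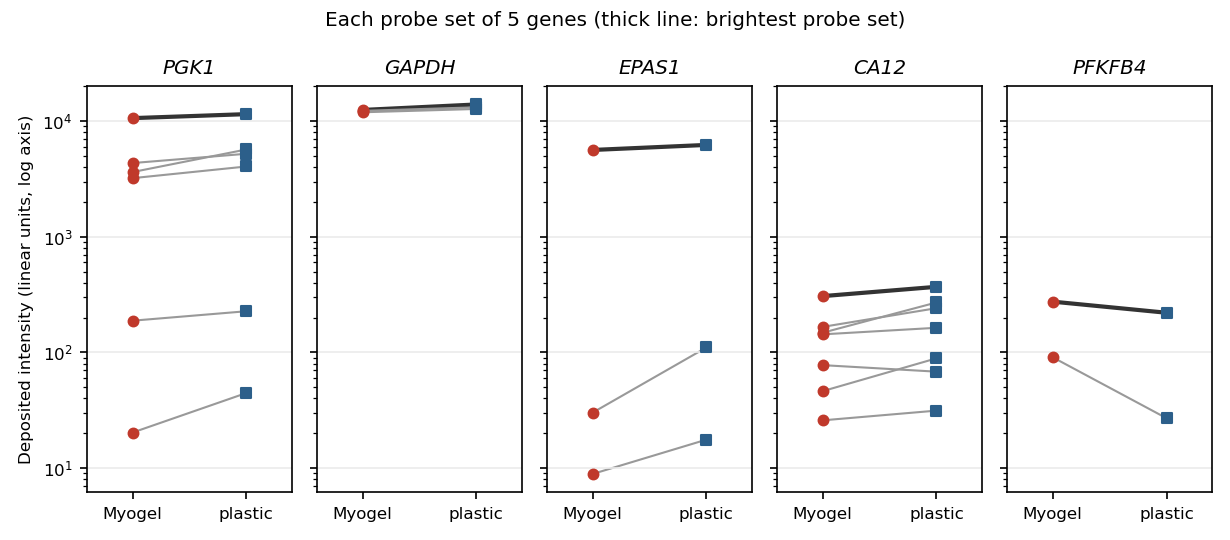
Intensity (y axis, linear units on a log axis) of each probe set of PGK1, GAPDH, EPAS1, CA12 and PFKFB4 on Myogel (red circles, left) and plastic (blue squares, right), with the brightest probe set as a thick line. Genes were picked for this plot after their values were seen. All 6 lines of PGK1 and all 3 of EPAS1 are lower on Myogel, and both of PFKFB4 are higher.

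In their brightest probe sets, the 8 genes that hypoxia induces through HIF had log2 FCs between -0.12 and 0.13 and a median of -0.02. BNIP3, a receptor for mitophagy, had 1955 on Myogel and 1945 on plastic, and its relative BNIP3L (NIX) had 1602 on Myogel and 1512 on plastic. NDRG1, a stress-responsive gene often used as a hypoxia marker, had 1340.2 on Myogel and 1226 on plastic. ADM, the precursor of the vasodilator adrenomedullin, had 5125 on Myogel and 5019 on plastic. These 4 had log2 FCs of 0.01, 0.08, 0.13 and 0.03. The other 4 were slightly below 0. P4HA1 and P4HA2, subunits of the prolyl hydroxylase that matures collagen, had 1475 on Myogel and 1590.5 on plastic, and 1627 on Myogel and 1672 on plastic. ANKRD37 had 199.7 on Myogel and 217 on plastic. KDM3A, a histone H3 lysine demethylase, had 868 on Myogel and 926 on plastic. In these probe sets 4 of the 8 genes were thus above 0 and 4 below it, and none reached FC 1.2. The dimmer probe sets differed more. Those of P4HA2 gave log2 FCs of -0.41 (242 on Myogel, 321 on plastic) and -1.52 (6.83 on Myogel, 19.6 on plastic), and that of P4HA1 gave -2.35 (1.13 on Myogel, 5.78 on plastic). As means over probe sets, P4HA2 was at -0.66 and P4HA1 at -1.23, past FC 1.5. The second probe sets of BNIP3 (-0.15), KDM3A (0.40) and ANKRD37 (1.23) had the opposite sign to the first, and that of BNIP3L (0.07) had the same sign.

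**Figure D4:**
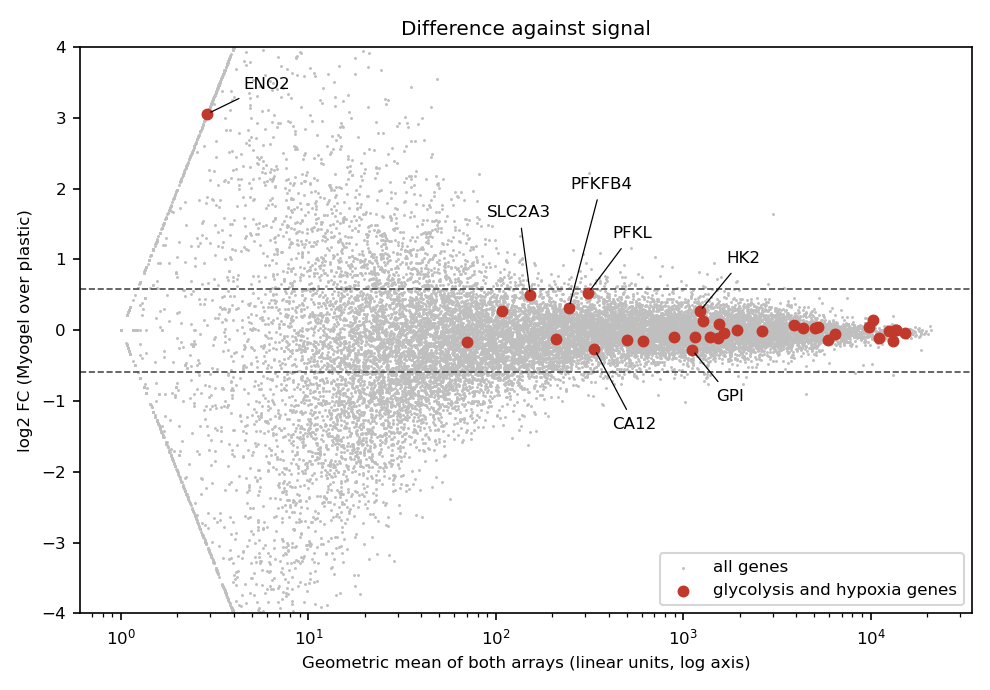
Difference between the surfaces as log2 FC (y axis, cut at -4 and 4) against the geometric mean of both arrays (x axis, linear units on a log axis) for all genes in grey and the 35 genes of glycolysis and hypoxia in red. Dashed lines mark FC 1.5. The red points lie between these lines, except ENO2 at the dim end.

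Across all 80 probe sets of the 35 genes, the agreement between surfaces followed the signal. The log2 FC was above 0 in 25 of the 80 and below it in 55, with a median of -0.10. Over all 54613 probe sets the median was -0.11. Of 37 probe sets with both values at 1000 or more, 0 were higher and 1 was lower by 1.5, against 0.447% and 0.563% of all probe sets of that signal, and the SD of the log2 FC was 0.16. Of 17 with a lower value between 100 and 1000, 0 were higher and 1 was lower (SD 0.35), against 2.34% and 4.58%. Of 26 with a value below 100, 4 were higher and 10 were lower (SD 1.16), against 20.6% and 36.3% of all such probe sets, shares near those of the 26. A difference of at least 100 linear units together with FC 1.5 was found in 2 of the 80, those of PGK1 and CA12 given above. Among the 24 genes with at least 2 probe sets, the second brightest had the sign of the brightest in 15 and the opposite sign in 9. Counting any probe set, 4 genes had one that was higher by 1.5 (ENO2, PFKFB4, EGLN1 and ANKRD37) and 8 had one that was lower (SLC2A3, PFKL, PGK1, PDK1, CA12, EPAS1, P4HA1 and P4HA2), an option added after the data were seen. Over all genes, 22.1% had any probe set higher and 36.2% any probe set lower by as much, so these counts are no result about the 35 genes.

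Other genes of sugar metabolism and of the hypoxia response, in 6 related lists, were set beside them. Over all genes 9.71% were higher and 17.5% were lower by 1.5. In lists this short the counts are no result about a list. Among 25 other hypoxia-induced genes, 1 was higher and 0 were lower by 1.5, and the median log2 FC was 0.08. VEGFA, the angiogenic growth factor, had 1220.2 on Myogel and 913 on plastic, 1.34-fold higher. Of its 4 probe sets 3 were higher and 1 was lower, the second brightest with a log2 FC of -0.22. The mean over them was 0.28. The gene past 1.5 was the dim ANGPTL4, a secreted regulator of lipoprotein lipase (60.5 on Myogel, 30.9 on plastic), named after its values were seen. Its other probe set was lower on Myogel, also past 1.5. Of 15 other genes of the HIF system, 0 were higher and 1 was lower, with a median of -0.05. CREBBP, a coactivator of HIF, had 1116 on Myogel and 860.2 on plastic. Of its 4 probe sets 3 were higher, 1 of them past 1.5, and 1 was lower, also past 1.5. The lower gene was the dim ARNT2, a relative of ARNT (10.8 on Myogel, 19.7 on plastic), likewise named afterwards.

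In the pentose phosphate pathway, a branch that yields NADPH and ribose, 0 of 8 genes were higher and 2 were lower by 1.5, with a median of -0.10. The shares over all genes were 9.71% and 17.5%, so the 2 genes are no result about the pathway. H6PD, which makes NADPH in the endoplasmic reticulum, had 171 on Myogel and 274 on plastic, 1.61-fold lower. Its log2 FC of -0.68 lay inside the range of -0.76 to 0.61. Its 4 probe sets were all lower, with a log2 FC of -0.31 in the second brightest. TKTL1, named after its values were seen, was dim, with 8.05 on Myogel and 43.0 on plastic. For the entry of pyruvate into mitochondria 1 of 13 genes was higher and 1 was lower, the dim PDK2 (146 on Myogel, 96.2 on plastic) and PDK4 (10.7 on Myogel, 36.4 on plastic), named afterwards. The second probe set of PDK2 was lower, and the other 2 of PDK4 were both higher by more than 1.5, so neither gene had a common direction. The largest difference at or above the median signal was that of PC, pyruvate carboxylase, with 532 on Myogel and 384 on plastic. For glycogen and gluconeogenesis 1 of 16 genes was higher and 2 were lower, and GYS1, glycogen synthase, had 472 on Myogel and 378 on plastic. For other glycolytic isoforms and regulators 3 of 21 genes were higher and 3 were lower, each of them with values under 100, and LDHC had 168 on Myogel and 247 on plastic.

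**Figure D5:**
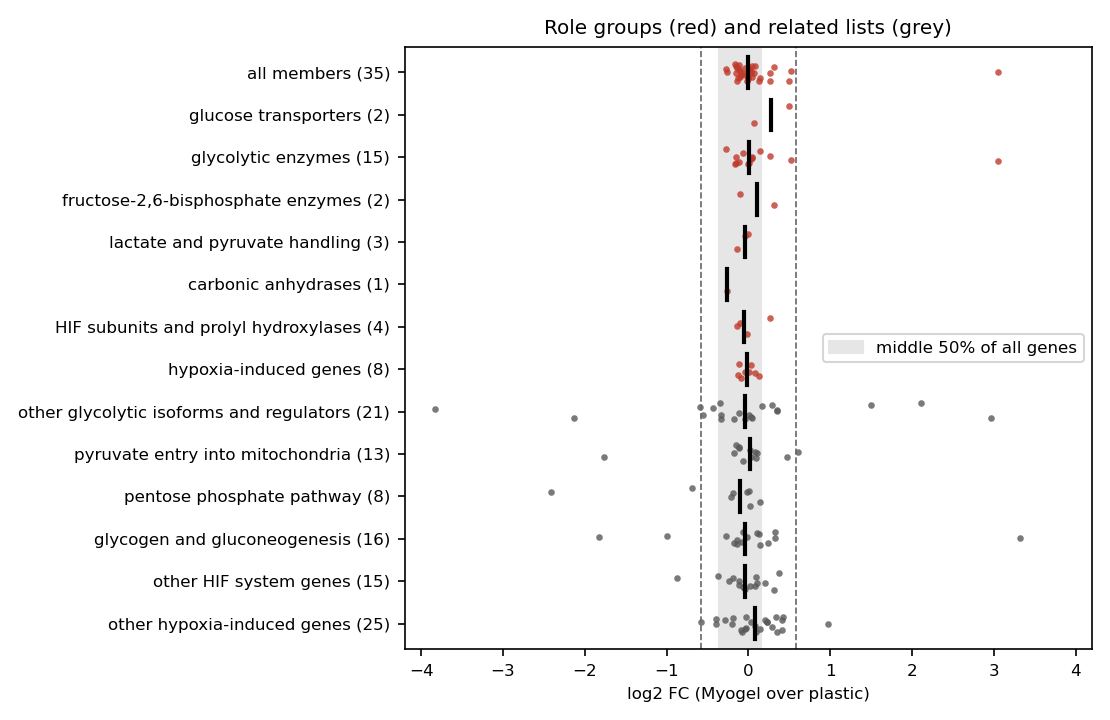
The log2 FC of Myogel over plastic (x axis) of each gene in the role groups (red) and in 6 related lists (grey), with gene numbers in parentheses, the median as a black bar and the middle 50% of all genes shaded. Dashed lines mark FC 1.5. The medians of all 35 genes (-0.01) and of the 25 other hypoxia-induced genes (0.08) lie between these lines.

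The labelled cell type was checked with its markers. Of 10 markers of squamous carcinoma epithelium 6 were measured, with values from 1073 to 18224 on Myogel and from 1051 to 18856 on plastic, and 0 of them passed 1.5. Since Myogel comes from a smooth muscle tumor, markers of its cells were summed as well. The 7 smooth muscle markers summed to 1130.0 on Myogel and 1126 on plastic, of which ACTA2 gave most (756 on Myogel, 703 on plastic). Of the 7, 4 were higher and 3 lower on Myogel, with 1 higher by 1.5 (LMOD1, 30.9 on Myogel and 14.3 on plastic) and 2 lower (SMTN, 88.4 on Myogel and 136 on plastic, and CNN1, at the floor on Myogel and 17.6 on plastic), all of them dim. DES had 63.5 on Myogel and 43.0 on plastic, and the part of these cells in the results was not tested. The 7 fibroblast markers summed to 719 on Myogel and 717 on plastic, of which COL1A1 gave most (454 on Myogel, 431 on plastic). The 5 endothelial markers summed to 271 on Myogel and 332 on plastic, and 5 of 6 blood markers to 724 on Myogel and 685 on plastic. By 1.5, 1 fibroblast marker was higher and 0 were lower. Among endothelial markers 1 was higher and 3 were lower, and among blood markers 1 was higher and 1 lower. Of 18 spike-in control probe sets (bioB, bioC, bioD and cre), 17 had lower values on the Myogel array, with a median log2 FC of -0.36. The part of the spike-in difference in the gene values was not tested.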

How the data were processed

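HSC-3 RNA pooled from 3 wells on Myogel and from 3 wells on plastic was hybridised to 1 Affymetrix U133 Plus 2.0 array each. Samples were assigned by their titles. The treatment text of both samples speaks of uncoated plates, which the title of the Myogel sample contradicts. The authors deposited linear intensity values made with dChip, while its version, model and scaling are not given in these sources. The lowest intensity, 1, is a floor that held 4.73% of 54613 probe sets on Myogel and 4.42% on plastic. No detection calls were used, and the number of arrays limits the precision.

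FC was the Myogel over the plastic intensity with no further scaling. Symbols came from the platform annotation, updated by Entrez identifier through RefSeq. Of the probe sets, 41091 had 1 symbol, 1801 had several and 11721 are unnamed here, and 62 controls were left out. The genes and lists were chosen with earlier results of these data known. All 35 measured genes were named. In each related list, genes at or above the median signal (higher value 159.6) with FC 1.5 were named, up to 3 in each direction, or else the gene with the largest difference. Alternatives were quantile normalization, loess centring (span 0.3), median centring, offsets of 16 and 50, filters on signal and probe set type, the second probe set or the mean over probe sets, and thresholds of FC 1.2, FC 2 and 100 linear units. The calculations used pandas 2.3.3 and numpy 2.4.6, loess came from statsmodels 0.14.6 and plots from matplotlib 3.10.9, under Python 3.11.15, and they were tested on simulated data.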

Additional observations from a re-analysis of the deposited data

Results flagged for a closer look

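One result came from probe sets outside the comparisons above, since they match both SLC2A3 and its close relative SLC2A14. One of these had 68.5 on Myogel and 40.9 on plastic, which is 1.67-fold higher, and the other had 56.8 on Myogel and 42.3 on plastic. Both genes can give this signal, and their shares were not tested.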

How the results depend on the processing

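The number of the 35 genes higher on Myogel was 1 as deposited. It was 3 after quantile normalization, loess centring or setting the median log2 ratio to 0, which moved PFKL and SLC2A3 past FC 1.5 (log2 FC 0.59 and 0.61 after quantile normalization, 0.59 and 0.61 after loess centring, 0.63 and 0.60 with the median at 0). These scalings put the median of all genes, -0.07 as deposited, at 0.00, 0.01 and 0.04. Over all genes the share higher was then 13.2%, 13.3% and 11.3%. The number higher was 0 with an offset of 16 or 50, among the 32 genes whose higher value reached the median, with a difference of 100 linear units, and among genes with both values at 1000 or more. It was 2 with the mean over probe sets and 2 of 24 genes with the second probe set. With FC 1.2 it was 6, and with any probe set 4. The number lower was 0, except in the settings that follow. It was 1 of 22 genes when probe sets of the types _x_at, _s_at and _a_at were left out. With the mean over probe sets it was 4, and with the second probe set 5 of 24 genes. It was 2 with FC 1.2 and 8 with any probe set. Over all genes the share lower was 20.7% without those types, 21.4% with the mean, 22.6% with the second probe set and 30.8% with FC 1.2, and the share higher was 11.6% with the mean, 12.4% with the second probe set and 18.1% with FC 1.2. The median log2 FC of the genes was 0.10 with the median ratio set to 0 and -0.15 with the second probe set. The share of all genes past 1.5 in either direction was 27.3%. It was 15.5% with an offset of 16, 4.70% with an offset of 50, 3.29% at or above the median signal, 49.0% with FC 1.2, 17.0% with FC 2, 1.07% with 100 linear units and 0.563% with both values at 1000 or more. The 1000-unit limit and the count over any probe set were added after the data were seen.

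With the median ratio set to 0, the group medians were 0.050 for HIF subunits and prolyl hydroxylases, 0.22 for fructose-2,6-bisphosphate enzymes, 0.39 for glucose transporters, 0.11 for glycolytic enzymes, 0.091 for hypoxia-induced genes and 0.070 for lactate and pyruvate handling. With the second probe set they were -0.23, 1.75, -0.83 and -0.10 for the first 4 groups and -0.40 for lactate and pyruvate handling. The 1.75 is the value of PFKFB4 alone, since PFKFB3 has 1 probe set. With the 3 probe set types left out, 22 genes are kept. Group values were 0.32 for fructose-2,6-bisphosphate enzymes (PFKFB4 alone), -0.49 for glucose transporters (SLC2A1 alone) and -0.14 for lactate and pyruvate handling (PDK1 alone). With the mean over probe sets the group medians were 0.47 for fructose-2,6-bisphosphate enzymes and -0.49 for glucose transporters. The other 38 of 54 values for groups moved by less than 0.1. No paired analysis was possible because each surface has 1 array. Signal over background limits the dim probe sets, and the causes of these changes were not tested.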
